A study of Mus musculus with 11 samples.

Results

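The 10 genes described here are receptor and granule markers of mouse neutrophils: Cxcr2, Csf3r, Clec4d, Clec4e, Trem1, Trem3, Fpr1, Fpr2, Ly6g and Mmp8. They were taken by gene symbol, and all 10 were measured among 20352 genes on 11 whole-transcript arrays. Of these arrays, 5 held keratoacanthomas, squamous tumours of skin keratinocytes, all from mice carrying both the K14-Cre and the Zmiz1 transgene. The normal skins numbered 6: normal skin 1 and 2 carried both transgenes as the tumours did, 3 and 4 carried K14-Cre alone, and 5 and 6 carried Zmiz1 alone. K14-Cre drives Cre recombinase from the promoter of keratin 14, a gene of basal epidermal cells. In which cells Cre was active in these mice was not tested here. Strain, age and sex of the mice, and whether pieces came from separate animals, are not given in the sources used here. The p-values therefore measure the spread between arrays, part of which may be technical.

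Neutrophils leave the blood along gradients of CXC chemokines, which they sense with the receptor Cxcr2, and depend on granulocyte colony-stimulating factor, sensed by Csf3r, for their production and survival. In the tissue they recognise microbes and damaged cells through C-type lectin receptors, triggering receptors and formyl peptide receptors, which monocytes and macrophages share to a varying degree. Granule proteins such as Mpo, elastase and lactoferrin are largely transcribed in precursors in the bone marrow, while mature cells keep transcripts of receptors and cytokines.

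Values are log2 signals, and the level of a gene is the median over its probesets. Zmiz1, the gene the transgene is named for, stood at 8.15 ± 0.11 (SD, n = 5) in keratoacanthoma and 7.50 ± 0.30 (SD, n = 6) in normal skin (log2 difference 0.65, SE 0.14, limma adjusted p = 0.0045). Among the skins it did not follow genotype, at 7.63 and 7.15 with both transgenes, 7.33 and 7.73 with K14-Cre alone, and 7.24 and 7.91 with Zmiz1 alone. Array medians lay between 6.22 and 6.27. Keratoacanthoma 4 and normal skin 1 and 3 stood apart in hair keratin genes, whose mean level was 8.87 in that tumour and at least 9.71 in these skins. It was 6.07 to 6.42 in the remaining tumours and 5.96 to 6.09 in the remaining skins. The 25th percentile of all probesets lay at 4.88 to 4.95 on the arrays. A probeset is called dim where its mean over all arrays lay below the 25th percentile of the means of all probesets. A gene is called dim by the same rule among genes.

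Of the 10 genes, 4 were higher in keratoacanthoma and none lower (limma, Benjamini-Hochberg adjusted p below 0.05 over all genes). Among all genes, 14.5% were higher and 10.8% lower. Cxcr2 rose 12.9-fold, Clec4d 3.46-fold, Clec4e 2.39-fold and Csf3r 1.62-fold. The remaining 6, Trem1, Trem3, Fpr1, Fpr2, Ly6g and Mmp8, did not pass, with ratios of 1.23 to 1.70. Ly6g, the surface antigen that defines mouse neutrophils, and Mmp8, the only granule enzyme of the group, were among these. The median log2 difference of the 10 was 0.71, against -0.04 for all genes. In whole tissue, a change in the number of cells of a type cannot be told apart from a change in RNA per cell.

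The 25th percentile of probesets on the arrays lay above the mean of normal skin for 8 of the 10 genes and above the mean of the tumours for 5, namely Trem3, Fpr1, Fpr2, Ly6g and Mmp8. Signal near background follows the amount of transcript poorly, so the size of a difference between such low values is uncertain. A filter that removed genes with a mean below the 25th percentile of all genes kept 3 of the 10.

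**Figure D1:**
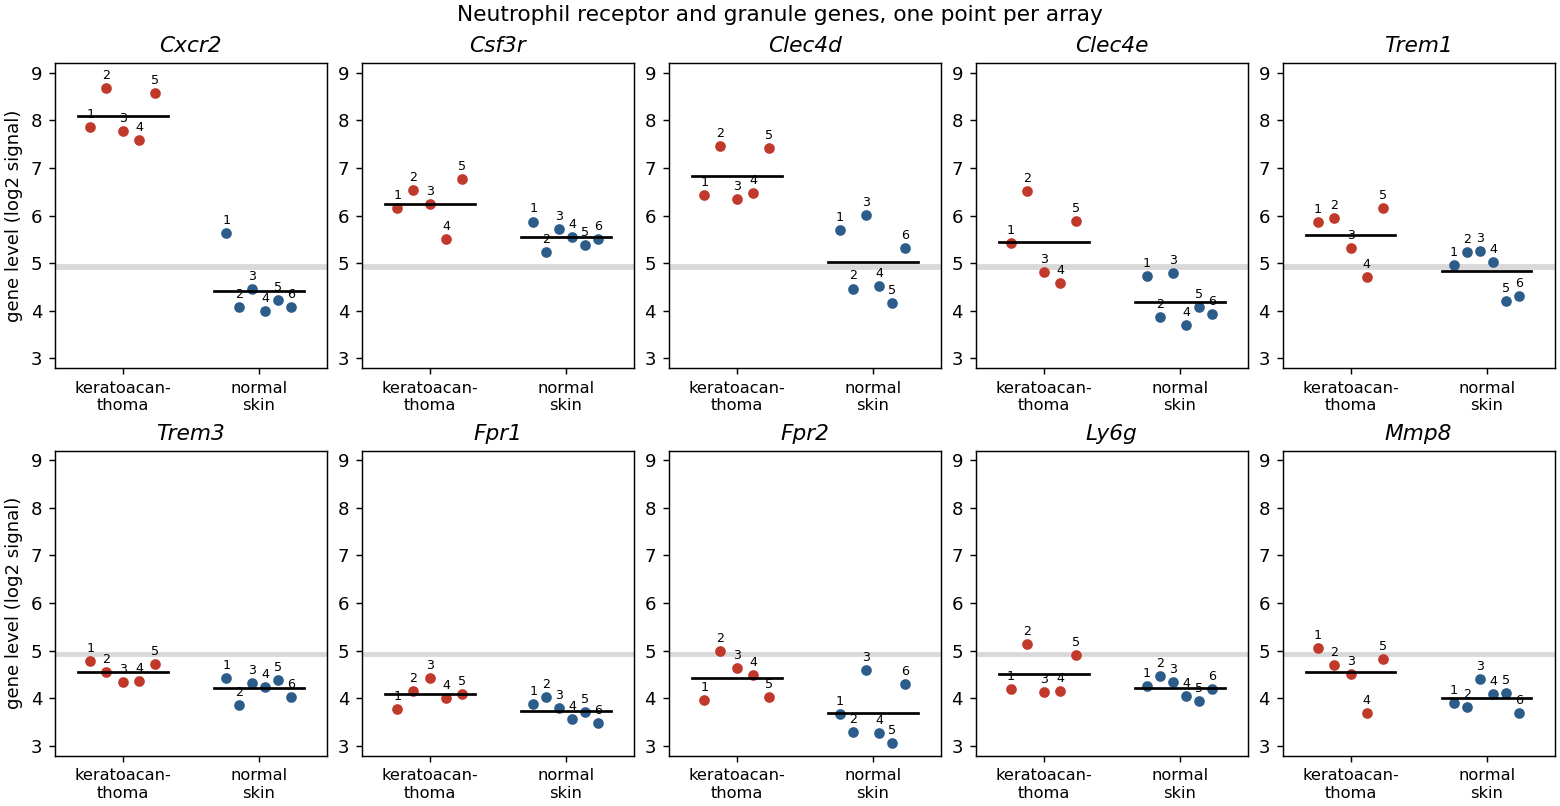
Gene level (log2 signal) of the 10 genes, with a point per array numbered as in the labels, keratoacanthoma left and normal skin right, bars for the group means and a grey band for the 25th percentile of all probesets on the arrays (4.88 to 4.95). Cxcr2 lies between 7.59 and 8.67 in the 5 tumours and between 3.99 and 5.63 in the 6 skins, while Ly6g lies between 4.13 and 5.15 in the tumours and between 3.94 and 4.47 in the skins.

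Cxcr2 encodes the receptor for the CXC chemokines that draw neutrophils out of the blood. Its level was 7.86, 8.67, 7.77, 7.59 and 8.58 in keratoacanthoma 1 to 5, against a lowest, median and highest level of 3.99, 4.15 and 5.63 in the 6 normal skins. Every tumour stood above every skin, and normal skin 1 was the highest of the skins, followed by normal skin 3 at 4.46. The means were 8.09 ± 0.50 in keratoacanthoma and 4.41 ± 0.62 in normal skin, with a log2 difference of 3.69 (SE 0.29, 95% interval 3.05 to 4.32, limma adjusted p = 3.1e-06). By p-value Cxcr2 ranked 76 among all genes. With the mean over its 3 probesets in place of the median the difference was 2.41 (adjusted p = 6.3e-06).

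Csf3r, the receptor for granulocyte colony-stimulating factor, had levels of 6.15, 6.54, 6.25, 5.50 and 6.77 in keratoacanthoma 1 to 5, against 5.24, 5.53 and 5.87 (lowest, median and highest) in normal skin. The groups overlapped through keratoacanthoma 4, which lay below normal skin 1, 3, 4 and 6. The log2 difference was 0.70 (SE 0.20, 95% interval 0.27 to 1.12, limma adjusted p = 0.020). It was not called without keratoacanthoma 2 or 5 (adjusted p = 0.056 each) or with only the double transgenic skins as reference (0.19).

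Clec4d, a C-type lectin that binds a mycobacterial glycolipid, had levels of 6.43, 7.45, 6.34, 6.47 and 7.42 in keratoacanthoma 1 to 5, against 4.17, 4.92 and 6.00 in normal skin. The groups did not overlap, keratoacanthoma 3 being the lowest tumour and normal skin 3 the highest skin. The log2 difference was 1.79 (SE 0.35, 95% interval 1.05 to 2.54, limma adjusted p = 0.0021). Separation of all tumours above all skins held for 2 of the 10 genes, Cxcr2 and Clec4d, and for 9.66% of all genes.

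Clec4e, or Mincle, senses glycolipids and dead cells and is the neighbour of Clec4d in the genome. Its levels were 5.43, 6.52, 4.82, 4.58 and 5.89 in keratoacanthoma 1 to 5, against 3.71, 4.01 and 4.80 in normal skin. Keratoacanthoma 4 lay within the range of the skins, and the log2 difference was 1.26 (SE 0.32, 95% interval 0.56 to 1.96, limma adjusted p = 0.012). With only the double transgenic skins as reference it was 1.14 and not called (adjusted p = 0.15).

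The promoters of the 4 genes that rose are shown because all 4 changed in the same direction. The windows run from 250 bases before to 50 bases after the annotated start, and sequences and coordinates are those of RefSeq for build GRCm38.p6, read 5′ to 3′ along the gene. Capitals mark matches, on either strand, to GAGGAAG (a form of the PU.1 motif), TTGCNNAA (C/EBP) or TTCNNNGAA (STAT3), where N is any base. These are chr1:74153744-74154043 (plus strand) for Cxcr2, chr4:126024409-126024708 (plus) for Csf3r, chr6:123261857-123262156 (plus) for Clec4d and chr6:123289822-123290121 (minus) for Clec4e.
Cxcr2: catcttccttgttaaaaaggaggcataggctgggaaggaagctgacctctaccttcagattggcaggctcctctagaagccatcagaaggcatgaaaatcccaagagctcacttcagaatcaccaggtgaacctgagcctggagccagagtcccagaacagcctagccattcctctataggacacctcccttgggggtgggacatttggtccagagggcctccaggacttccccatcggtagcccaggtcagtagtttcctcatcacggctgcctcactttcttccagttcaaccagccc
Csf3r: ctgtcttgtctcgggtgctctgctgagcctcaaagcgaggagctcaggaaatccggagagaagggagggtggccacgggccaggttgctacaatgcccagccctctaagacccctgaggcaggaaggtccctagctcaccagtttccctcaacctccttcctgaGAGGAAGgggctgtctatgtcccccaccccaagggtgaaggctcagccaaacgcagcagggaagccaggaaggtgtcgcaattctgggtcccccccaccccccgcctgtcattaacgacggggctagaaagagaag
Clec4d: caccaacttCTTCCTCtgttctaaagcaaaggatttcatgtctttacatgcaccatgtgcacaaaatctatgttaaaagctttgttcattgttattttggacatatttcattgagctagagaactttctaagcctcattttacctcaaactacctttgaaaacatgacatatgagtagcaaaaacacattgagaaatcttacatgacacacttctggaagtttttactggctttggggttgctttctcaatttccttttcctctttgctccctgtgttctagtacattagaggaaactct
Clec4e: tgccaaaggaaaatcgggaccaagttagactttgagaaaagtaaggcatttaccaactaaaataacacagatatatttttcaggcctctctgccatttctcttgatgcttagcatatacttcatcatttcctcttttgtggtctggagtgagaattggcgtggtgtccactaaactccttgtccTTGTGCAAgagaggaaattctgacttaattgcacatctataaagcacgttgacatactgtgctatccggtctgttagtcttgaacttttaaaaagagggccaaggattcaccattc

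Csf3r and Clec4d each held 1 PU.1 match, beginning at positions -86 and -241 from the start. Clec4e held 1 C/EBP match at -66, and Cxcr2 held none of the 3 longer motifs. Of the 9 genes with a promoter in the table, 4 held the PU.1 motif, 3 the C/EBP motif and 2 the STAT3 motif (Trem1 and Fpr2), a match in either of the 2 windows of Ly6g being counted. Among all 32851 windows of this length these shares were 13.6%, 10.8% and 8.30%. The short ETS core GGAA, which the PU.1 motif contains, was in all 9 and in 96.0% of all windows. Such matches describe letters and do not show binding.

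The triggering receptors Trem1 and Trem3 signal through the adaptor Tyrobp, and Trem1 amplifies inflammation in neutrophils and monocytes. Trem1 stood at 5.86, 5.94, 5.31, 4.70 and 6.15 in keratoacanthoma 1 to 5, against 4.20, 4.99 and 5.25 in normal skin. Of the tumours, 4 lay above all skins, and keratoacanthoma 4 lay within their range. The log2 difference was 0.76 (SE 0.27, 95% interval 0.17 to 1.35, limma adjusted p = 0.057). It passed without keratoacanthoma 4 (0.99, adjusted p = 0.011) or normal skin 3 (0.85, adjusted p = 0.049), with the mean over probesets (0.74, adjusted p = 0.022) and with array weights (0.86, adjusted p = 0.033). Trem3 averaged 4.56 ± 0.20 in keratoacanthoma and 4.21 ± 0.22 in normal skin, and the groups overlapped, at 4.35 to 4.78 in the tumours and 3.87 to 4.42 in the skins (log2 difference 0.34, 95% interval 0.06 to 0.63, limma adjusted p = 0.070). As the mean over its 4 probesets the difference was 0.14, and without normal skin 1 and 3 it was 0.43 and passed (adjusted p = 0.0498).

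The formyl peptide receptors Fpr1 and Fpr2 sense peptides of bacteria and mitochondria and, in the case of Fpr2, also annexin A1. Fpr1 averaged 4.09 ± 0.23 in keratoacanthoma and 3.74 ± 0.20 in normal skin (log2 difference 0.35, 95% interval 0.06 to 0.63, limma adjusted p = 0.072). Fpr2 averaged 4.42 ± 0.43 in keratoacanthoma and 3.70 ± 0.62 in normal skin (log2 difference 0.72, 95% interval 0.11 to 1.33, limma adjusted p = 0.082). Fpr1 lay between 3.78 and 4.42 in the tumours and between 3.49 and 4.03 in the skins, and Fpr2 between 3.96 and 4.99 in the tumours and between 3.07 and 4.61 in the skins. The groups overlapped in both. Each gene has 2 probesets, of which 1 was dim in Fpr1 and both in Fpr2. The call of Fpr1 depended on the setting: it passed with the mean over probesets (adjusted p = 0.045), without the dim probeset (0.43, adjusted p = 0.049), with array weights (adjusted p = 0.026) and with only the single transgenic skins as reference (adjusted p = 0.032). It also passed without keratoacanthoma 1 (adjusted p = 0.036) or normal skin 2 (adjusted p = 0.040). Fpr2 passed without normal skin 3 (adjusted p = 0.021), without normal skin 1 and 3 (adjusted p = 0.026) and with title numbers as a block (adjusted p = 0.039).

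Ly6g stood at 4.21, 5.15, 4.13, 4.16 and 4.91 in keratoacanthoma 1 to 5, against 3.94, 4.23 and 4.47 in normal skin. Keratoacanthoma 2 and 5 lay above all skins and the remaining 3 tumours within their range. The log2 difference was 0.30 (SE 0.19, 95% interval -0.11 to 0.71, limma adjusted p = 0.28), and no setting that gave it a value put it past the threshold. Ly6g has close relatives in the Ly6 family, so that its 2 probesets may share signal with them.

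Mmp8, the collagenase of neutrophil granules, stood at 5.05, 4.70, 4.52, 3.69 and 4.82 in keratoacanthoma 1 to 5, against 3.69, 3.99 and 4.40 in normal skin. Keratoacanthoma 4 was as low as the lowest skin, while the other 4 tumours lay above every skin. The log2 difference was 0.56 (SE 0.21, 95% interval 0.10 to 1.01, limma adjusted p = 0.073). Without keratoacanthoma 4 it was 0.77 and passed (adjusted p = 0.0035), and without dim probesets it was 0.17 (adjusted p = 0.68).

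No pair of related receptors differed in its change beyond the spread between arrays. The difference was tested per array by exact two-sided permutation, in which 5 against 6 arrays cannot give a p below 0.0043, with adjustment over the 3 pairs. The log2 difference of Clec4d, 1.79, exceeded that of Clec4e, 1.26, by 0.53 (exact p = 0.076, adjusted p = 0.23). For Trem1 minus Trem3 it was 0.42 (exact p = 0.19, adjusted p = 0.28) and for Fpr1 minus Fpr2 it was -0.37 (exact p = 0.30, adjusted p = 0.30). In the genome annotation no gene lies between Clec4d and Clec4e or between Fpr1 and Fpr2. Members of a pair are related in sequence, and their probes may share signal.

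Single probesets spread widely around the gene levels. The 10 genes had 60 probesets, of which 11 were higher past the threshold and none lower, against 8.29% of all probesets higher. A positive difference was found for 53 of the 60, and 32 of the 60 lay below the 25th percentile of probesets by their mean over all arrays. In Cxcr2, probesets 10347293 and 10347294 rose by 3.71 and 3.03 on the log2 scale. The third, 10347292, was dim and differed by 0.48 (limma adjusted p = 0.44).

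In Csf3r, 2 of 13 probesets rose, 10508076 by 2.07 and 10508077 by 2.65, while the remaining 11 differed by -0.10 to 1.20 without a call. The difference of the gene levels, 0.70, was well below that of these 2. Probeset 10508077 separated the groups, at 7.004 to 9.16 in keratoacanthoma and 4.21 to 6.34 in normal skin. Probeset 10508088, with the highest signal of the 13, also separated them, at 9.578 to 9.91 in keratoacanthoma and 9.17 to 9.577 in normal skin. It differed by only 0.42 and was not called (limma adjusted p = 0.0615).

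Clec4d had 3 probesets that rose, 10541616, 10541617 and 10541618, by 1.66, 2.27 and 2.40, and in each the tumours lay above the skins. Of these, 10541618 was dim. Probesets 10541620 and 10541621 differed by 1.68 and 1.95 without a call (limma adjusted p = 0.12 and 0.11). Normal skin 1 and 3 had 9.17 and 8.67 in probeset 10541620, within the range of the tumours (8.004 to 9.43), whereas the other 4 skins had 5.24 to 6.16. These are the 2 skins high in hair keratins, whose part in this signal was not tested.

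In Clec4e, probesets 10547667 and 10547669 rose by 1.97 and 1.48, and 6 of its 9 probesets were dim, 10547667 among them. Probeset 10547672, which was not dim, differed by -0.08. Trem1 and Fpr2 had 1 probeset each that rose, 10445749 by 1.06 and 10442102 by 1.45. Both of these were dim, and in both the groups overlapped. Of the 11 probesets of Mmp8, 9 were dim and none was called, although 10583111 differed by 2.17 (limma adjusted p = 0.095) with tumours at 3.83 to 7.67 and skins at 1.74 to 6.60.

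**Figure D2:**
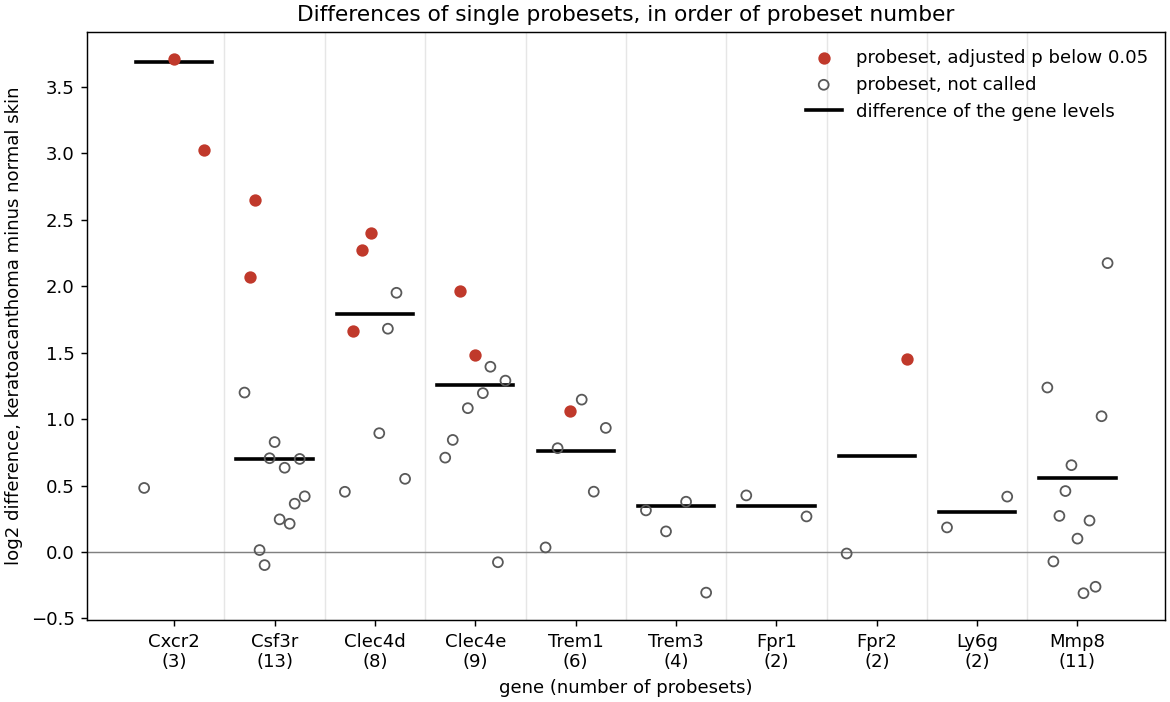
Log2 difference, keratoacanthoma minus normal skin, of each probeset of the 10 genes in the order of probeset numbers, filled where the adjusted p was below 0.05, with black bars for the difference of the gene levels. The bar of Csf3r, at 0.70, lies below its 2 called probesets at 2.07 and 2.65, and the bar of Cxcr2, at 3.69, lies near its highest probeset at 3.71.

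Against normal skin of the same genotype, 2 of the 10 genes were higher and none lower, where 10.6% of all genes were higher. This comparison sets the 5 tumours against normal skin 1 and 2 in a limma model of 4 groups fitted on all 11 arrays. Cxcr2 averaged 8.09 in keratoacanthoma and 4.85 in double transgenic normal skin (log2 difference 3.24, SE 0.40, limma adjusted p = 0.00076). This difference was 4.02 without normal skin 1 (adjusted p = 0.00017) and 2.47 without normal skin 2 (adjusted p = 0.011), and 2.24 with the mean over probesets (adjusted p = 0.0011). Clec4d averaged 6.82 in keratoacanthoma and 5.09 in double transgenic normal skin (log2 difference 1.74, SE 0.50, limma adjusted p = 0.037). The call of Clec4d was lost without keratoacanthoma 2 or 5 or without normal skin 2, where the difference was 1.58, 1.59 and 1.12. It was also lost with the mean over probesets (1.33), without dim probesets (0.96) and with array weights (1.77). The difference of Csf3r was 0.68 (95% interval 0.04 to 1.32) and that of Clec4e 1.14 (0.08 to 2.20), with limma adjusted p of 0.13 each. Without keratoacanthoma 4, Csf3r (0.87, adjusted p = 0.027) and Mmp8 (0.92, adjusted p = 0.012) also passed, and without normal skin 1 Trem3 passed (0.69, adjusted p = 0.044). With the mean over probesets Csf3r passed as well (0.97, adjusted p = 0.032). The differences of all 10 genes were above 0, with Fpr1 (0.14) and Ly6g (0.14) the smallest.

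Between double and single transgenic normal skin none of the 10 genes was called by limma, and none had an unadjusted p below 0.05. Over all genes 3 were called (0.0147%) and 2071 had an unadjusted p below 0.05. Cxcr2 averaged 4.85 in double and 4.19 in single transgenic skin, a log2 difference of 0.66 (95% interval -0.25 to 1.57, limma adjusted p = 0.61). Without normal skin 1 this difference was -0.12. All 10 intervals spanned 0, and with 2 against 4 arrays that of Clec4d reached from -1.07 to 1.23.

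**Figure D3:**
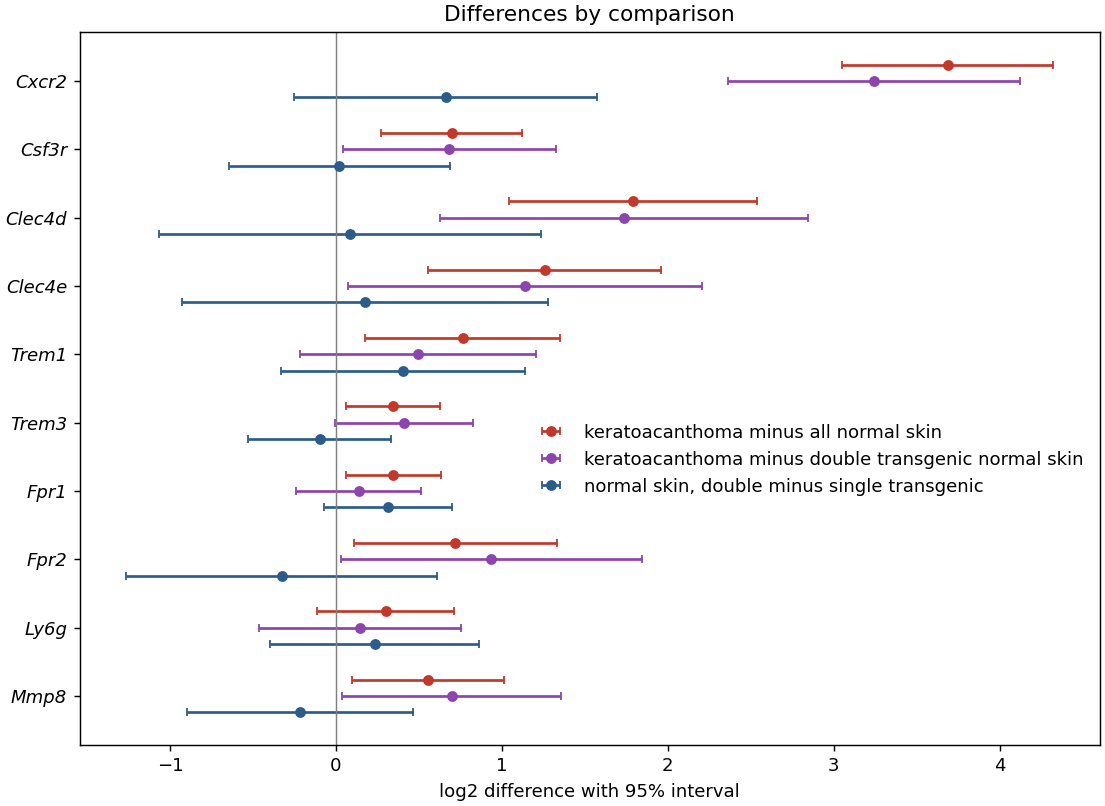
Log2 differences of the 10 genes with 95% intervals from limma, for keratoacanthoma minus all normal skin (top of each row), keratoacanthoma minus double transgenic normal skin (middle) and double minus single transgenic normal skin (bottom). The intervals of Cxcr2 lie at 3.05 to 4.32 and 2.36 to 4.12 in the tumour comparisons, and at -0.25 to 1.57 between normal skins.

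Keratoacanthoma 2 and 5 were among the 2 highest tumours in 8 of 10 genes each, and keratoacanthoma 4 was among the 2 lowest in 8. Among the skins, normal skin 3 was among the 2 highest in 8 genes and normal skin 1 in 6. After the group means were removed, 40 of the 45 pairs of genes had a positive Pearson r over the 11 arrays (median 0.45, range -0.35 to 0.81). The correlation of a gene with the mean of the other 9 was 0.92 for Clec4e, 0.84 for Csf3r, 0.81 for Clec4d, 0.74 for Cxcr2, 0.72 for Ly6g and 0.64 for Trem1. It was lower for Mmp8 (0.49), Trem3 (0.43), Fpr2 (0.28) and Fpr1 (0.14). The arrays high in hair keratins stood at both ends of this order, keratoacanthoma 4 lowest of the tumours and normal skin 1 and 3 highest of the skins. Without these 3 arrays, a setting chosen after seeing the data, 8 of the 10 genes and 2646 of all 20352 genes were higher. The differences of Cxcr2 and Csf3r were then 4.13 and 1.01. What the hair keratin genes have to do with the neutrophil genes was not tested.

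Among 15261 genes at or above the 25th percentile of gene means, Il1b, the inflammatory cytokine interleukin 1 beta, deviated most like the mean of the 10. Its Pearson r was 0.99 over the 11 arrays with group means removed (Spearman 0.95), 0.98 within the 5 tumours and 0.99 within the 6 skins. Il1b stood at 8.04, 9.08, 7.96, 6.86 and 8.89 in keratoacanthoma 1 to 5, and at 6.80 and 6.91 in normal skin 1 and 3 against 5.28 to 5.74 in the other 4 skins. The collagenase Mmp13 (r = 0.97) and the surface antigen Psca (0.96) followed, then the late cornified envelope gene Lce1g (0.94), the lipoxygenase Alox8 (0.92), the phospholipase Pla2g4e (0.92), Lsm2 (0.90) and Ippk (0.90). Without the 2 arrays farthest from the median, r of these 8 genes lay between 0.86 and 0.98. The 8 are the top of many genes compared over few arrays of shared origin, and the correlations are given as a description.

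**Figure D4:**
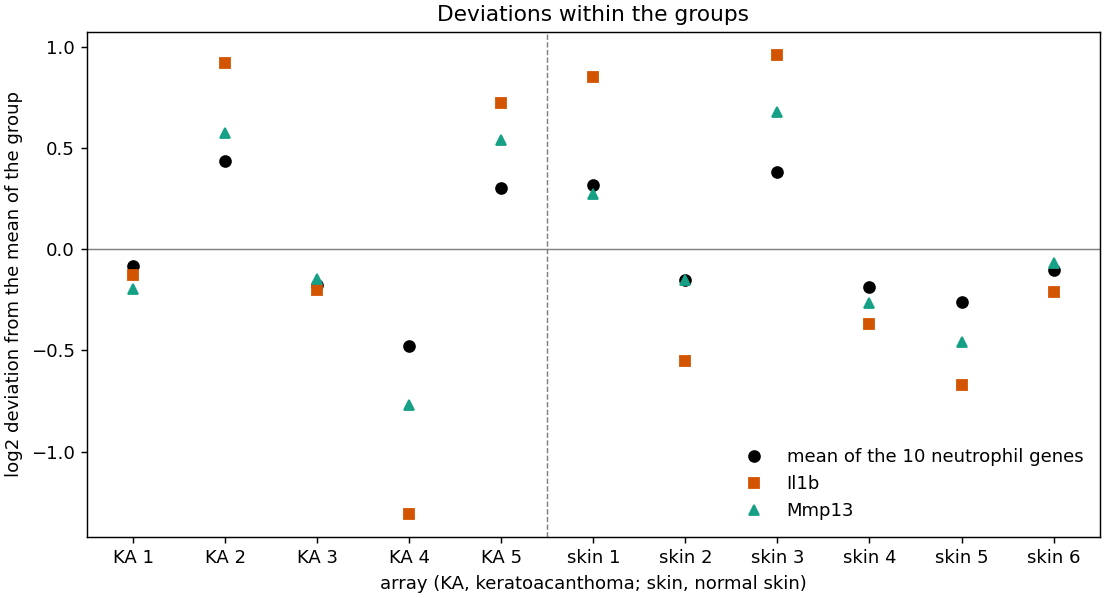
Deviation from the mean of the own group (log2) on each array, for the mean of the 10 neutrophil genes, Il1b and Mmp13. Keratoacanthoma 4 is lowest of the tumours in all 3, and keratoacanthoma 2 and 5 and normal skin 1 and 3 lie above 0 in all 3.

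Genes around the 10 were read from lists by role. Of 81 measured genes in 7 lists of neutrophil biology, 22 were higher and 4 lower, where 14.5% of all genes were higher and 10.8% lower. The number lower was 12 with the mean over probesets and 9 without dim probesets. Over all genes the number lower also grew, from 2200 to 3214 and 2519 in these settings. With only the double transgenic skins as reference, 14 were higher and 1 lower. Differences are on the log2 scale as before. The lists were chosen with earlier results of these data known.

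Of 13 measured attractants, receptor ligands and other cytokines, 6 were higher and none lower (median 0.19), against 14.5% and 10.8% of all genes. Of the 6, 4 were CXC chemokines that bind Cxcr2. Cxcl3, a CXC chemokine, averaged 8.19 ± 0.76 in keratoacanthoma and 5.49 ± 0.46 in normal skin (6.50-fold, limma adjusted p = 6.9e-05). Cxcl2 averaged 7.86 ± 1.18 in keratoacanthoma and 5.37 ± 0.57 in normal skin (5.59-fold, limma adjusted p = 0.0015). Cxcl5 and Ppbp rose 2.26-fold and 2.23-fold. In Ppbp the groups overlapped, with keratoacanthoma 3 (5.18) and 4 (5.59) below normal skin 1 (5.63). Annexin A1 (Anxa1), a ligand of formyl peptide receptors, rose 1.67-fold, and Pglyrp1, a ligand of Trem1, 1.33-fold. Csf3, the ligand of Csf3r, averaged 5.07 in keratoacanthoma and 5.23 in normal skin (limma adjusted p = 0.41), and Cxcl1 5.98 in keratoacanthoma and 5.89 in normal skin (adjusted p = 0.74).

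Partners and relatives of the receptors mostly did not pass. Of 22 measured, 2 were higher and 1 lower (median -0.12), against 14.5% and 10.8% of all genes. Clec4n, which encodes Dectin-2 and lies next to Clec4d, rose 2.90-fold, the beta-glucan receptor Clec7a 2.27-fold, and Trem2, a receptor of macrophages, fell by 0.56 on the log2 scale. The adaptors Tyrobp and Fcer1g differed by -0.41 and 0.20 (limma adjusted p = 0.20 and 0.52). Cxcr1, the closest relative of Cxcr2, differed by 0.03 (adjusted p = 0.85), and the 4 measured Fpr-rs genes by -0.32 to 0.06 without a call.

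Of 6 primary granule genes 2 were higher, against 14.5% of all genes. These were the protease-activating Ctsc (4.47-fold) and the inhibitor Serpinb1a (2.68-fold), both also active outside neutrophils. Myeloperoxidase Mpo, proteinase 3 (Prtn3) and cathepsin G (Ctsg) differed by 0.21, -0.15 and -0.01 without a call. Of 17 genes of later granules and neutrophil cytosol, 9 were higher and 2 lower (median 1.30), against 14.5% and 10.8% of all genes. S100a8 and S100a9, calgranulins also made by inflamed keratinocytes, rose 19.1-fold and 11.9-fold, and the stefins Stfa3 and Stfa1 5.25-fold and 4.72-fold. The stefins are near copies of each other, so their signals may be shared. Normal skin already held high levels of some genes of this list. Stfa3 averaged 12.03 in keratoacanthoma and 9.64 in normal skin, Stfa1 12.23 and 9.99, and Wfdc21 7.94 and 10.56. Ly6g averaged 4.51 in keratoacanthoma and 4.21 in normal skin. Which cells gave the signals of the list was not tested. Mmp9 rose 3.09-fold, Lcn2, which keratinocytes also make, 3.01-fold, and Retnlg, a resistin-like gene of neutrophils, 3.21-fold. The tumours were uneven in Retnlg, at 8.48, 8.72, 5.97, 5.99 and 6.68 in keratoacanthoma 1 to 5. Keratoacanthoma 3 and 4 lay below normal skin 6 at 6.10. Haptoglobin (Hp), also a gene of fat and liver, and Wfdc21 differed by -1.68 and -2.62, both past the threshold. Lactoferrin (Ltf), Camp, Ngp and Cd177 differed by 0.03, 0.22, 0.18 and -0.20 without a call.

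The next lists stand beside 14.5% of all genes higher and 10.8% lower. The NADPH oxidase list had 1 gene higher and 1 lower of 6, Cyba by 0.39 and Ncf1 by -0.37. Of 8 adhesion genes 1 was higher, the endothelial Vcam1 (0.46). The integrin subunits Itgam and Itgb2 differed by 0.27 and -0.16 without a call. Of 9 genes of signalling and transcription, 1 was higher, Stat3 (0.68), while Spi1, the gene of PU.1, differed by -0.33 (limma adjusted p = 0.28) and Cebpe by -0.36 (adjusted p = 0.079).

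Beside the counts of this paragraph, 14.5% of all genes were higher and 10.8% lower. Markers of leukocytes in general did not pass. Of 8 genes, none was called by limma in either direction, and Ptprc, the CD45 antigen, differed by -0.32 (adjusted p = 0.39). Nearest to the threshold were Cd53 (0.81, adjusted p = 0.056) and Arhgdib (0.69, adjusted p = 0.073). The mean level of this list was 6.86 to 7.61 in the tumours and 6.97 to 7.67 in the skins. Of 12 macrophage genes 3 were lower and 1 higher, with mean levels of 5.90 to 6.78 in the tumours and 6.61 to 7.39 in the skins. Adgre1, the F4/80 antigen, fell by 0.98, Mertk by 0.77 and Csf1r by 0.74, while the scavenger receptor Msr1 was higher by 0.92. Of 6 monocyte genes 2 were lower and none higher, F13a1 at a difference of -1.86 and Ly6c2 at -0.59. Their mean levels were 6.36 to 6.93 in the tumours and 6.59 to 7.13 in the skins.

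Dendritic and Langerhans cell genes were lower in 3 of 9 and lymphocyte genes in 1 of 8, against 10.8% of all genes. None was higher in either list, against 14.5% of all genes. The mean levels of these lists were 6.04 to 6.39 and 4.62 to 5.03 in the tumours. In the skins they were 6.35 to 6.87 and 5.01 to 5.37. For red cells 2 genes were measured and none was called (means of 5.58 to 7.72 in the tumours and 6.04 to 7.40 in the skins). The 10 neutrophil genes had mean levels of 4.96 to 5.87 in the tumours and 4.13 to 4.77 in the skins. Which cells gave the signal of the 10 genes, Cxcr2 included, was not tested. This holds for the part of keratinocytes and for that of other leukocytes, which share genes such as Clec4d and Clec4e with neutrophils.

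**Figure D5:**
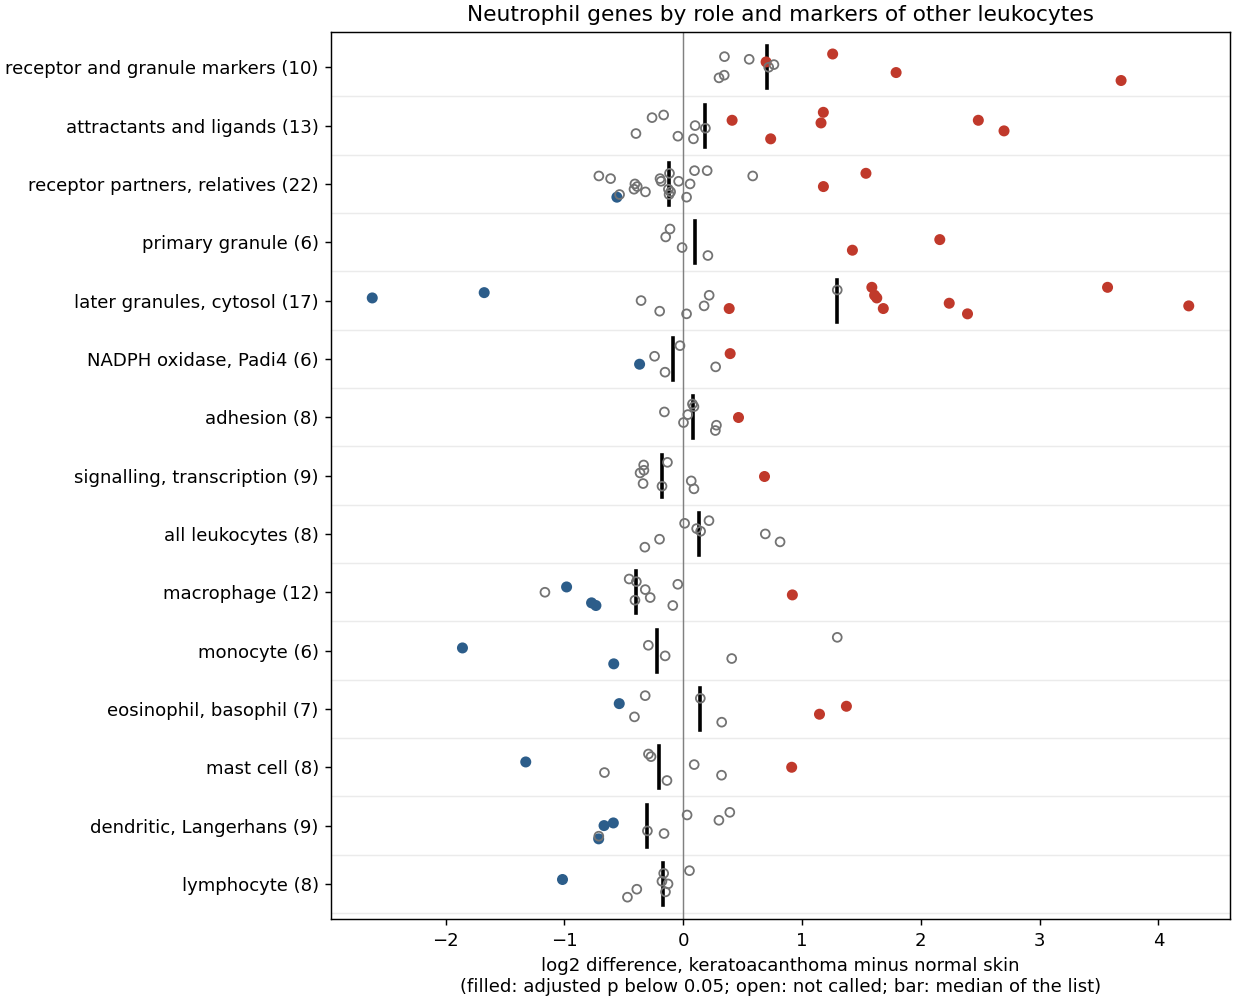
Log2 difference, keratoacanthoma minus normal skin, of each measured gene in the lists (number measured in brackets), filled red where higher and blue where lower with an adjusted p below 0.05, open where not called, with a bar for the median. The 10 receptor and granule markers have a median of 0.71 and the macrophage list a median of -0.40, and the largest point at right, S100a8, lies at 4.26.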

How the data were processed

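Arrays were hybridised with amplified, biotin-labelled cDNA of total RNA from snap-frozen tissue, per the labels' protocols. The table the authors deposited holds log2 values of 241576 probesets, made with RMA in Partek on build mm9, per the submitters' processing notes. Their versions and settings are not given in the sources used here. The deposited normalization was kept. The array annotation named 1 gene for 212097 probesets, several for 4475 and none for 25004, and the first kind was used without 590 duplicates. Symbols were updated through RefSeq (2742 changed, such as Il8rb to Cxcr2), and the gene level was the median over probesets. R 4.3.3 with limma 3.58.1 (lmFit, eBayes) was run over all 20352 genes or 211507 probesets, with Benjamini-Hochberg adjustment and a threshold of 0.05. Tables and figures were made in Python 3.11.15 (matplotlib 3.10.9, numpy 2.4.6, pandas 2.3.3). The fit was tested on simulated data. The number of arrays limits the precision. Named are all 10 members, up to 4 called genes per list with the largest difference, defining markers of other cells, and the 8 genes most like the members. Members and lists were chosen with earlier results of these data known. Other list genes named, single probesets, and the setting without the 3 arrays high in hair keratins were chosen after their values were seen. Alternatives were the mean over probesets, filters on dim probesets or genes, quantile normalization or centring, weighted arrays, a robust eBayes with trend, each kind of normal skin alone as reference, blocks by title number, and each array left out. Of 90 listed genes of neutrophil biology, 81 had a value.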

Additional observations from a re-analysis of the deposited data

Results flagged for a closer look

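Cxcr2 in normal skin 1, from a double transgenic mouse, stood at 5.63, far above the other 5 skins (3.99 to 4.46). Its gap to the next skin was 0.71 of the range of the 6 skins, past Dixon's critical value at 95% confidence. It was the only value past this limit among 20 tests, 10 genes in each of the 2 groups, and chance flags about 1 in 20 such groups. The flagged level is that of probeset 10347293. In probeset 10347294 normal skin 1 (6.08) stood close to normal skin 3 (6.06). In the dim probeset 10347292 normal skin 1 was the lowest skin (2.93). Without normal skin 1 the difference of the Cxcr2 level between keratoacanthoma and normal skin was 3.93.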

How the results depend on the processing

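In the comparison of keratoacanthoma with normal skin, the difference stayed above 0 for all 10 genes under every alternative that gave a value and without any one array. The replicate block, pairing title numbers, left 4 genes higher, losing Csf3r (0.69, adjusted p = 0.061) and gaining Fpr2 (0.84, adjusted p = 0.039). Same-numbered deviations correlated by -0.18 to 0.10, and 1 of 5 correlated best with its own number. Other differences between arrays enter these deviations, so they cannot decide whether the numbers pair the arrays. With only the double transgenic skins as reference, 2 of the 10 genes, 4 of their probesets, 14 listed genes of neutrophil biology and 1942 of all genes were higher, and 1 listed and 1244 of all genes lower. Listed genes lower were 12 with the mean over probesets and 9 without dim probesets, against 4. Over all genes 3214 and 2519 were lower in these settings, against 2200. Called probesets were 17 without normal skin 1 and 3. Without keratoacanthoma 4 too, chosen after seeing the data, 8 of the 10 genes, 21 of their probesets and 2646 of all genes were higher, Fpr1 and Ly6g not. Against the same genotype, 1 gene was higher without dim probesets or with array weights. Leaving out each array gave 3 to 6 genes, 7 to 16 probesets, 17 to 21 listed genes, 2406 to 2942 of all genes higher, 3 to 5 listed and 1612 to 2207 of all genes lower, and 1 to 4 genes higher against the same genotype. The pair differences ran over 0.38 to 0.65, 0.26 to 0.59 and -0.54 to -0.23. Signs turned as follows. For double minus single transgenic skin, the mean over probesets gave -0.30 for Csf3r and 0.021 for Mmp8. Leaving out arrays there gave -0.12 to 1.44 for Cxcr2, -0.29 to 0.34 for Csf3r, -0.53 to 0.70 for Clec4d, -0.26 to 0.61 for Clec4e, -0.37 to 0.18 for Trem3 and -0.66 to 0.0074 for Fpr2. Against the same genotype, Mmp8 was -0.24 without dim probesets, and Ly6g ran from -0.014 to 0.25. Fits without normal skin 1 or 2 leave 1 double transgenic skin, assumed to vary like the other groups. Of the 10 genes, 7 had no value without dim genes. Causes were not tested.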

Other observations

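Some genes of basophils and eosinophils passed the threshold, and their list had no common direction. Mcpt8, a basophil protease, averaged 5.79 ± 0.29 in keratoacanthoma and 4.42 ± 0.54 in normal skin (log2 difference 1.37, limma adjusted p = 0.00099). Ccr3, the eotaxin receptor of eosinophils and basophils, averaged 6.41 ± 0.77 in keratoacanthoma and 5.26 ± 0.19 in normal skin (1.15, adjusted p = 0.0083). Prg2, the major basic protein of eosinophil granules, fell by 0.54. The list had 7 measured genes, 2 of them higher and 1 lower, where 14.5% of all genes were higher and 10.8% lower. Its mean levels were 5.58 to 5.91 in the tumours and 5.24 to 5.85 in the skins.

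Of 8 mast cell genes, 1 was higher and 1 lower, against 14.5% and 10.8% of all genes. Cpa3, a mast cell carboxypeptidase, averaged 6.80 ± 0.78 in keratoacanthoma and 8.13 ± 0.44 in normal skin (log2 difference -1.33, limma adjusted p = 0.0078). Hdc, which makes histamine and is active in mast cells, basophils and neutrophils, averaged 6.39 ± 0.44 in keratoacanthoma and 5.48 ± 0.24 in normal skin (0.91, adjusted p = 0.0033). The mean level of the mast cell list was 5.50 to 5.95 in the tumours and 5.57 to 6.10 in the skins. In the list of Langerhans and dendritic cells, Cd207, the langerin of Langerhans cells, fell by 0.71, the antigen-presenting H2-Ab1 by 0.67 and Clec9a by 0.59.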
